A study of Rattus norvegicus with 12 samples.

Results

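Metabotropic glutamate receptors (mGluRs) and their Homer scaffold proteins were examined through 9 genes: Grm2, Grm3, Grm4, Grm5, Grm7, Grm8, Homer1, Homer2 and Homer3. Their probes were found by gene name in the array files, which gave 10 probes (Grm4 had 2) of 30367 probes for 26214 gene names. All 10 passed the filter on dim signals and were among the 23796 probes tested.

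The study cultured cells of cerebella from 1-day-old Sprague-Dawley rats and asked whether chronic exposure to a neonicotinoid insecticide altered gene expression. The 6 control cultures received only the solvent, dimethyl sulfoxide at 0.001%, and the 6 acetamiprid (ACE) cultures received 1 µM ACE in the same amount of solvent from day 2 until RNA was taken at 16 days in vitro. All cultures were in medium with serum until day 8 and in serum-free medium afterwards, and each culture experiment pooled the pups of a single litter. The control and the ACE culture of an experiment carry the same replicate number and share a cell lot and an array slide, so each replicate number is a pair.

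mGluRs are G protein-coupled receptors for glutamate. Group I receptors such as Grm5 act through Gq and release calcium from internal stores, while group II (Grm2, Grm3) and group III (Grm4, Grm6, Grm7, Grm8) act through Gi/o, lower cyclic AMP and often restrain transmitter release. Homer proteins bind the tail of group I receptors and tie them to inositol trisphosphate receptors and Shank at the postsynaptic density. In the cerebellum, Grm4 is known from granule cell terminals on Purkinje cells, Grm2 from Golgi and unipolar brush cells, and Grm3 also from glia.

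The probes are 60 bases long. The sequences of 5 are shown, from the array files: those of the 4 genes with an unadjusted limma p-value under 0.05 (Grm5, Grm8, Homer2 and Homer3) and that of Grm7, which, like the Grm8 probe, matches the genome in pieces. Capitals mark a stop codon.
Grm5: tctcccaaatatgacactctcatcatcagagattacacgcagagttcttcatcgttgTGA
Grm7: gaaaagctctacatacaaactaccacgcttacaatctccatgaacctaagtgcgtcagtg
Grm8: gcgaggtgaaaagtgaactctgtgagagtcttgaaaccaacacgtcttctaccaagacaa
Homer2: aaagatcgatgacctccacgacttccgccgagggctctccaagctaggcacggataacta
Homer3: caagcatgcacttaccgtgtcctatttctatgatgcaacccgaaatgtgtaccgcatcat
In the rn4 build named in those files, the Grm5 probe lies at chr1:144477224-144477283 on the plus strand and ends in a TGA codon with 0 earlier stops in its frame. The Homer2 probe lies at chr1:137827777-137827836 and the Homer3 probe at chr16:19624630-19624689, both on the minus strand. The Grm7 probe is placed at chr4:147088377-147201215 (plus strand), a span of 112839 bases, and the Grm8 probe at chr4:53976813-53983310 (minus strand), a span of 6498 bases. A span far above the probe length shows that these probes read spliced transcripts. The files place the Grm2 probe at chr8:111838413-111838472 (minus strand) and the Grm3 probe at chr4:20961707-20961766 (plus strand). The 2 Grm4 probes, at chr20:5627795-5627854 and chr20:5627750-5627809 on the minus strand, overlap and start at base 4366 and base 4411 of the same transcript, so they are not independent of each other. The Homer1 probe starts at base 3930 of its transcript and has no genome position in the files, and it was printed 10 times on each array.

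The array gives log2 signal after quantile normalisation, a scale on which a step of 1 is a 2-fold change. Values of different probes cannot be set against each other on such an array, and only values of the same probe are compared here. Of gene spots, 75.4% to 91.0% per array were well above background. Markers of granule cells (9 of 9 genes tested well above background on all 12 arrays), Purkinje cells (9 of 9), oligodendrocytes (10 of 10) and astrocytes (9 of 10) were present beside the pan-neuronal markers (7 of 8), so that the RNA is of a mixed culture. In such RNA, fewer cells of a type and less RNA per cell cannot be told apart. Skeletal muscle genes, which the labelled tissue would not contain, had a mean log2 signal of 10.78 in control replicate 1, 11.24 in control replicate 2, 8.82 in control replicate 6 and 10.04 in ACE replicate 1, against 7.07 to 7.69 on the other 8 arrays. Replicate 1 was also read with an earlier version of the extraction software than the rest. The differences of the members without replicates 1, 2 and 6 are given beside the others.

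For control versus ACE (CvA), 0 of the 10 mGluR and Homer probes had an adjusted p-value under 0.05 (limma with Benjamini-Hochberg adjustment over all probes tested), beside 0% of all 23796 probes. The lowest adjusted p was 0.177 among the members, for Grm8, and 0.141 among all probes. Without adjustment, 3956 probes had a limma p under 0.05. On that looser rule Grm5, Grm8 and Homer3 were higher in ACE (3 of 10 member probes, beside 6.9% of all probes) and Homer2 was lower (1 of 10, beside 9.73%). The ACE array was above its control in all 6 pairs for Grm8, Homer1 and Homer3 (3 of 10, beside 4.72% of all probes), and no member was below its control in all 6 pairs (0 of 10, beside 6.86%). The median difference over the 10 probes was 0.10 on the log2 scale, against -0.005 over all probes, and the median size of the difference regardless of sign was 0.12 against 0.062. With 10 probes chosen with earlier results known, these counts describe the family and test nothing about it.

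Which members met the unadjusted rule varied with the replicates used and with the processing, as the calls over all probes did. Without replicate 2 the count fell from 4 to 1 (Grm8), while that over all probes fell from 3956 to 2811. Without replicate 4 or replicate 5 it was 2 (Grm8 and Homer3 in both cases), beside 3322 and 3060 of all probes. Without replicate 1 it was 3 (Grm5, Grm8, Homer3; 3918 of all probes), without replicate 3 it was 5 (Grm7 in addition; 4161), and without replicate 6 it was 4 (3032). With replicates 1, 2 and 6 left out together, 0 of 10 met it and 1602 of all probes did. Only 3 pairs remain in that fit, and the estimates of Grm5 (0.19), Homer2 (-0.13) and Homer3 (0.14) were about as large as with 6 pairs, while that of Grm8 was smaller (0.21 against 0.30). Grm8 met it in all 6 fits that left out a single replicate, but not within the 3 pairs of 1 scan day, where Grm5, Grm7 and Homer3 did, nor with the replicates as a random block. Grm5 dropped out with the 75th percentile shift (3 of 10, beside 4216 of all probes) and with normexp background correction, where Homer1 came in (4 of 10, beside 4298). Homer1 also met it with the deposited values (5 of 10). For the deposited values and the pairs of 1 scan day no count over all probes is given. The member counts of those settings can therefore not be set against the array.

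**Figure D1:**
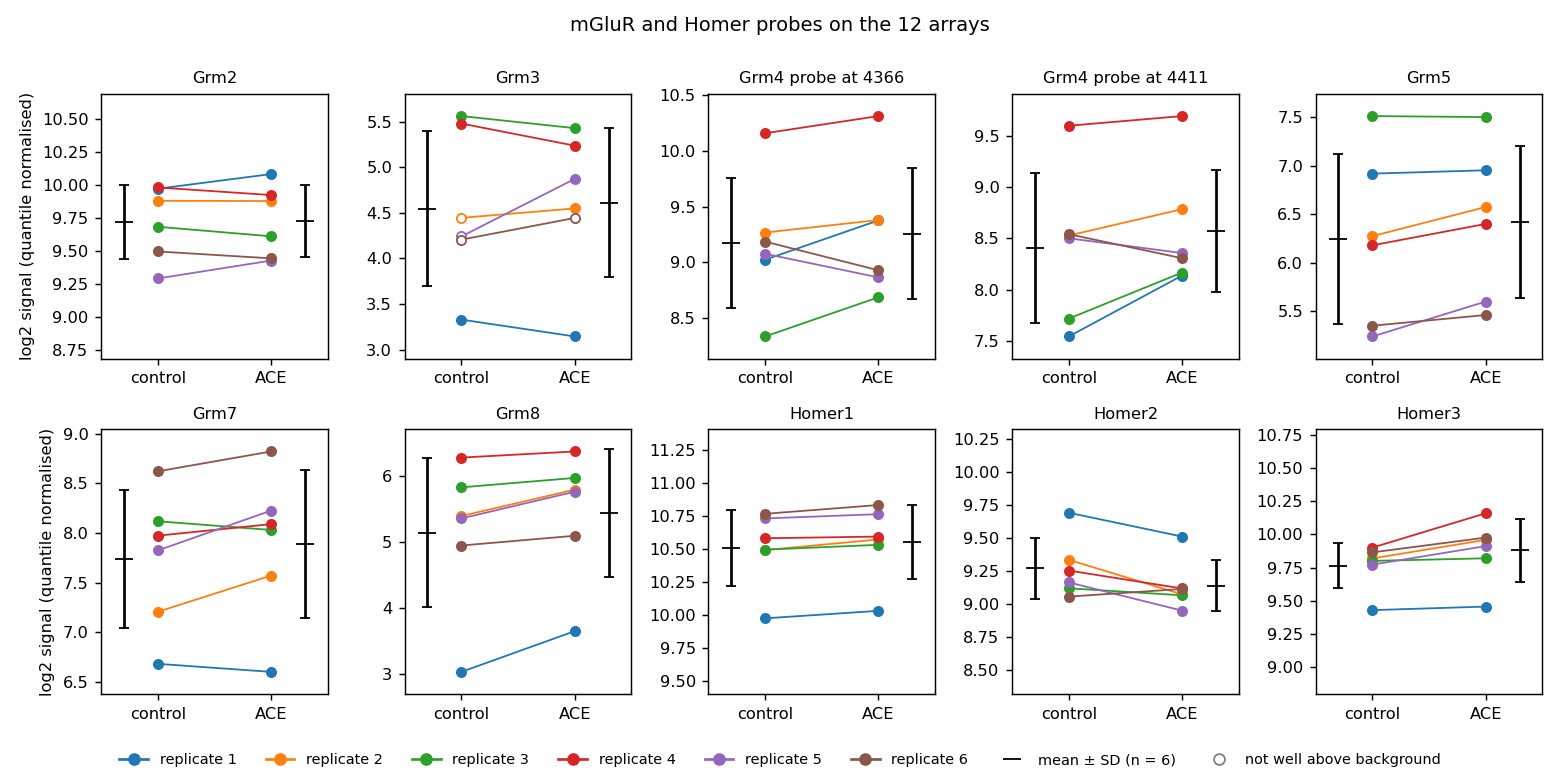
Log2 signal (vertical axes, quantile normalised, a separate range for each panel) of the 10 mGluR and Homer probes in control and ACE cultures. Each coloured line joins the 2 arrays of a replicate, black bars give the mean ± SD (n = 6), and open points were not well above background; the replicates lie far apart for Grm8, Grm3, Grm5 and Grm7, while the lines within them are short.

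Grm5 was the only group I receptor among the members, and its signal varied by replicate far more than by exposure. Its log2 signal had a lowest, median and highest value of 5.24, 6.23 and 7.51 in control and 5.46, 6.49 and 7.50 in ACE. The groups overlapped almost fully, with replicate 3 highest and replicates 5 and 6 lowest in both. The ACE minus control difference was 0.17 ± 0.057 (SE, 6 pairs), a 1.12-fold change with a 95% interval of 1.02 to 1.24 (limma adjusted p = 0.234). It was higher in 5 of 6 pairs, with pair 3 at -0.01 and pair 5 at 0.36, and the exact two-sided sign-flip permutation gave p = 0.0625. Replicates 4, 5 and 6 were scanned on 1 day, and within them the difference was 0.23. The size of the difference depended on the scaling and background: it was 0.07 with the 75th percentile shift and 0.04 with normexp background correction, neither with an unadjusted limma p under 0.05. Without replicates 1, 2 and 6 it was 0.19.

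The group II receptors Grm2 and Grm3 showed no direction shared by the pairs. Grm2 had a lowest, median and highest log2 signal of 9.29, 9.78 and 9.98 in control and 9.43, 9.74 and 10.08 in ACE. Its difference was 0.010 ± 0.038 (SE, 6 pairs; limma adjusted p = 0.909), with 2 pairs higher and 4 lower and a 95% interval of 0.945- to 1.07-fold. The sign of this estimate turned with the scaling of the arrays, and without replicates 1, 2 and 6 it was 0.002. Grm3 was dim: it was flagged well above background on 3 control and 5 ACE arrays. The flag did not follow its signal, as both arrays of replicate 1 carried it at the lowest values, 3.33 and 3.14. Its log2 signal ran from 3.33 over a median of 4.34 to 5.56 in control and from 3.14 over 4.71 to 5.43 in ACE. The difference was 0.069 ± 0.12 (SE, 6 pairs; limma adjusted p = 0.793), with 3 pairs in each direction. Pair 5 alone stood at 0.63, and without it the difference was -0.044. Without replicates 1, 2 and 6 it was 0.086.

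Of the group III receptors, Grm8 was higher in all 6 pairs and had the largest difference of the 10 probes after quantile normalisation of all 12 arrays, though not with normexp background correction or within the pairs of 1 scan day. Its control arrays, from replicate 1 to replicate 6, read 3.03, 5.39, 5.83, 6.28, 5.35 and 4.94 log2 units, and the ACE arrays 3.65, 5.79, 5.97, 6.37, 5.76 and 5.09. Each ACE array was above its own control, while the groups overlapped because the replicates themselves were so far apart. The difference was 0.30 ± 0.077 (SE, 6 pairs), a 1.23-fold change with a 95% interval of 1.08 to 1.40 (limma adjusted p = 0.177). The exact two-sided sign-flip permutation gave p = 0.03125, the smallest that 6 pairs allow. Pair 1, with the dimmest arrays of this probe (3.03 and 3.65), stood at 0.62 and pair 4 at 0.09. Without replicate 1 the difference was 0.24. Within the replicates scanned on 1 day it was 0.22, no longer with an unadjusted limma p under 0.05, and without replicates 1, 2 and 6 it was 0.21. With the 75th percentile shift the difference was smaller, at 0.17, and with normexp background correction it was 0.11.

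Grm7, a presynaptic receptor of the same group, had a lowest, median and highest log2 signal of 6.68, 7.90 and 8.62 in control and 6.60, 8.06 and 8.82 in ACE. Replicate 1 was lowest and replicate 6 highest in both groups. The difference was 0.15 ± 0.078 (SE, 6 pairs; limma adjusted p = 0.376), with 4 pairs higher, and pairs 1 and 3 slightly lower (-0.08 and -0.09). Within the replicates scanned on 1 day it was 0.24, and without replicates 1, 2 and 6 it was 0.14. For Grm4, the probe at base 4366 read 8.34, 9.13 and 10.16 (lowest, median, highest) in control and 8.69, 9.15 and 10.31 in ACE. The overlapping probe at base 4411 read 7.54, 8.51 and 9.60 in control and 8.14, 8.33 and 9.69 in ACE. Both probes were higher in pairs 1 to 4 and lower in pairs 5 and 6. Their differences were 0.083 ± 0.097 and 0.17 ± 0.12 (SE, 6 pairs; limma adjusted p = 0.686 and 0.498). Without replicate 1 they were 0.03 and 0.085, without replicate 3 they were 0.03 and 0.11, without replicate 5 the former was 0.14, and without replicate 6 they were 0.15 and 0.25. Within the replicates scanned on 1 day the sign turned, to -0.10 and -0.095. Without replicates 1, 2 and 6 they were 0.098 and 0.13.

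**Figure D2:**
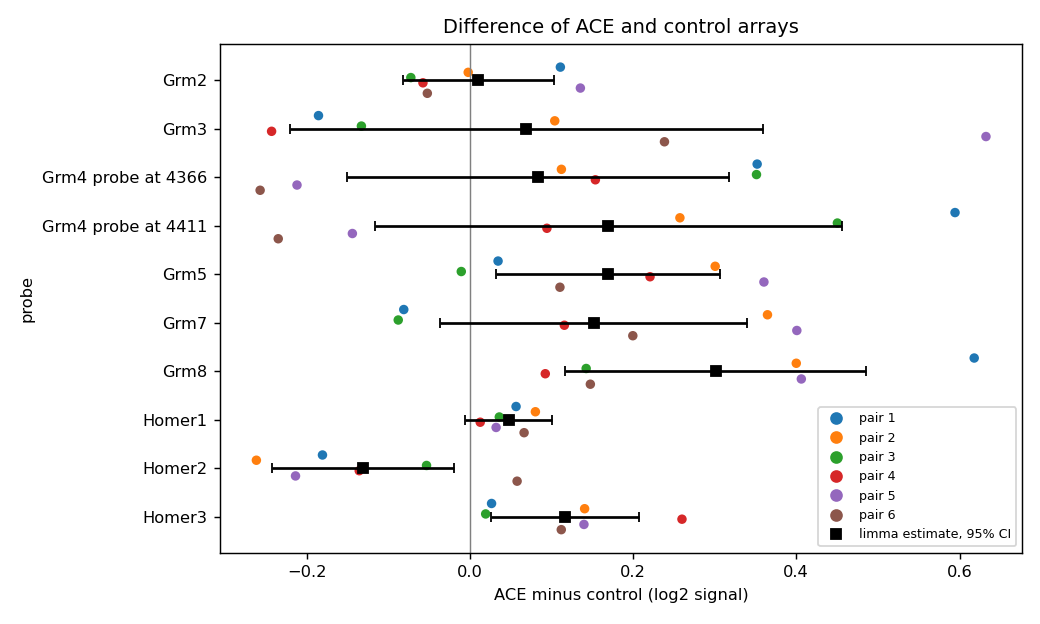
ACE minus control difference of each probe (horizontal axis, log2 signal) with the limma estimate and its 95% confidence interval (black squares and bars) and the 6 pair differences (coloured points). All 6 points of Grm8, Homer1 and Homer3 lie above 0, and the points of Homer1 are the most tightly grouped.

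The 3 Homer genes did not share a direction. Homer3, a scaffold known for its abundance in Purkinje cells, had a lowest, median and highest log2 signal of 9.43, 9.81 and 9.90 in control and 9.45, 9.94 and 10.16 in ACE. Each ACE array was above its own control, by 0.02 in pair 3 up to 0.26 in pair 4. The difference was 0.12 ± 0.038 (SE, 6 pairs), a 1.08-fold change with a 95% interval of 1.02 to 1.15 (limma adjusted p = 0.223; exact two-sided sign-flip permutation p = 0.03125). Within the replicates scanned on 1 day it was 0.17, and without replicates 1, 2 and 6 it was 0.14.

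Homer1 encodes the scaffold whose long forms cross-link receptors, and a short form of which is made after neuronal activity; the single probe was not matched to either form. Its log2 signal was 9.97, 10.54 and 10.77 (lowest, median, highest) in control and 10.03, 10.58 and 10.83 in ACE. All 6 ACE arrays were above their controls, by 0.01 to 0.08, a small shift against the gap of replicate 1 to the rest. The difference was 0.047 ± 0.022 (SE, 6 pairs), a 1.03-fold change (limma adjusted p = 0.346; exact two-sided sign-flip permutation p = 0.03125). Within the replicates scanned on 1 day it was 0.037, and without replicates 1, 2 and 6 it was 0.027. The 10 spots of the probe on an array had an SD of 0.023 to 0.052, about the size of the difference itself, and the mean of the 10 had a standard error of 0.0072 to 0.017. The SD of its pair differences was 0.025, and 0.672% of tested probes had a smaller one; 1390 of the 30367 probes were printed 10 times in this way.

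Homer2 was the only member lower in ACE after quantile normalisation. Its log2 signal was 9.06, 9.21 and 9.69 (lowest, median, highest) in control and 8.95, 9.09 and 9.51 in ACE. It was lower in 5 of 6 pairs, down to -0.26 in pair 2, and pair 6 was higher by 0.06. The difference was -0.13 ± 0.047 (SE, 6 pairs), 0.913-fold with a 95% interval of 0.845 to 0.987 (limma adjusted p = 0.25; exact two-sided sign-flip permutation p = 0.0938). Within the replicates scanned on 1 day it was -0.097, and without replicates 1, 2 and 6 it was -0.13.

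The direction counts depended in part on the scaling. With quantile normalisation 9 of 10 member probes and 47.8% of all tested probes were higher in ACE. When each array was instead shifted by its 75th percentile, 7 of 10 were higher, with Grm2 and Grm3 turning. The median difference over all tested probes was then -0.034, against -0.005 with quantile normalisation. With normexp background correction 8 of 10 were higher, beside a median of -0.0045 over all tested probes. Of all probes with an unadjusted limma p under 0.05, 41.5% were higher in ACE after quantile normalisation and 19.1% after the 75th percentile shift. Grm5, Grm7, Grm8, Homer1, Homer2 and Homer3 kept their sign under the 11 alternatives in which an estimate could move; 3 more (no block, a random block, no filter) return the same estimates by construction.

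All 10 member probes differed between replicates (limma F test of the replicate terms, adjusted p under 0.05), as did 83.9% of all tested probes, a property that most of the array shared. The ranges differed in size between the genes. The means of the 2 arrays of a replicate spanned 2.99 log2 units for Grm8 and 2.26 for Grm3, ranges wider than those of 98.4% and 94.6% of all tested probes. Replicate 1 set the low end of both, at 3.03 and 3.65 for Grm8 and 3.33 and 3.14 for Grm3. Its arrays were flagged well above background there, while 4 of 12 Grm3 arrays, at 4.21 to 4.45 in other replicates, were not. Replicate 1 was also read with an earlier software version. The ranges and ranks of Grm8 and Grm3 are therefore only approximate. Replicate means spanned 2.10 for Grm5, 2.08 for Grm7, and 1.72 and 1.81 for the Grm4 probes. The ranges were 0.80 for Homer1, 0.67 for Grm2, 0.59 for Homer3 and 0.54 for Homer2, beside a median of 0.77 over all tested probes. Replicate, litter and slide are the same factor in this design and cannot be told apart.

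**Figure D3:**
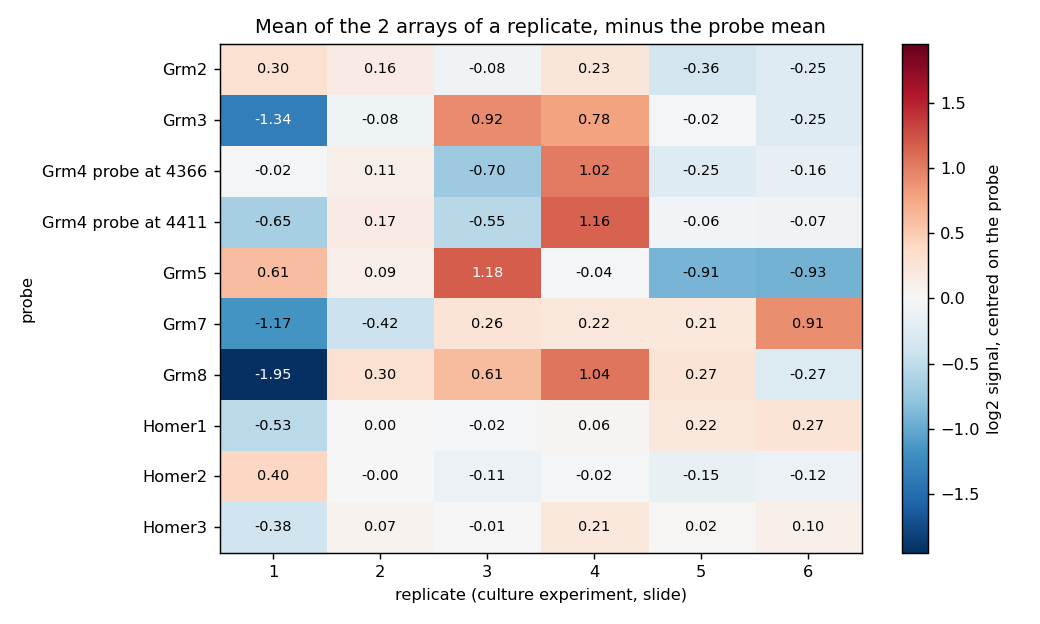
Mean log2 signal of the 2 arrays of each replicate (horizontal axis) for the 10 probes (vertical axis), centred on the probe's mean over the 6 replicates; numbers and colours give the same values. Grm8, Grm3 and Grm7 were lowest in replicate 1, where Homer2 was highest, and both Grm4 probes and Grm8 were highest in replicate 4.

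The receptors and scaffolds followed different replicates. Replicate 1 was lowest for Grm3, Grm7, Grm8, Homer1, Homer3 and the Grm4 probe at base 4411, and highest for Grm2 and Homer2. Replicate 4 was highest for Grm8, Homer3 and both Grm4 probes, replicate 3 for Grm3 and Grm5, and replicate 6 for Grm7 and Homer1. Grm5 was lowest in replicates 6 and 5, with centred values of -0.93 and -0.91, where Grm7 stood at 0.91 and 0.21. Without replicate 1 the ranges were 1.31 for Grm8, 1.17 for Grm3, 1.33 for Grm7, 0.29 for Homer1, 0.15 for Homer2 and 0.22 for Homer3. In that fit 8 of 10 probes still differed between replicates, and Homer2 and Homer3 did not pass. Over all probes 16717 passed, against 19963 with all replicates. Without replicate 4 the Grm4 ranges were 0.81 and 0.82. There 9 of 10 passed, without the Grm4 probe at base 4411, beside 19718 of all probes.

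Markers of cerebellar cells also differed between replicates, and the lists did not share a pattern. The level of the Golgi and molecular layer interneuron list (mean of 8 genes tested, 6 of them well above background on all 12 arrays) was 8.13 and 8.20 log2 units on the 2 arrays of replicate 1 and 8.60 to 9.37 on the other 10. The unipolar brush cell list (4 genes, all well above background on all 12 arrays) was 7.95 to 8.01 in replicates 1 and 6 and 8.65 to 9.29 in the rest. Both lists were highest in replicate 4, as were Grm8, Homer3 and both Grm4 probes. The granule cell list (9 genes) was likewise low in replicate 1, at 8.01 and 8.25, against 8.44 to 8.95 on the other arrays. The glial lists ran otherwise: the astrocyte list (10 genes) was highest in replicate 1, at 14.14 and 14.16, and lowest in replicate 6, at 13.48 on both arrays, while the oligodendrocyte list (10 genes) was 13.88 to 13.95 in replicates 1 and 2 and 14.65 and 14.73 in replicate 6. Of the Golgi and molecular layer interneuron list 5 of 8 genes were higher in ACE, with a median difference of 0.06. The other neuronal lists had 7 of 8 (pan-neuronal, median 0.058), 3 of 4 (unipolar brush cell, 0.067), 5 of 9 (Purkinje cell, 0.02) and 2 of 9 genes higher (granule cell, -0.028). The glial lists had 6 of 8 (microglia, 0.067), 7 of 10 (oligodendrocyte, 0.015) and 3 of 10 genes higher (astrocyte, -0.038). In the muscle list 0 of 13 tested genes were higher in ACE, with a median difference of -0.96. At an unadjusted limma p under 0.05, 1 gene each was higher in the interneuron, pan-neuronal and granule cell lists. In the astrocyte and microglia lists 2 each were higher. The Purkinje cell, oligodendrocyte and microglia lists had 1 gene each lower, the muscle list 2. The unipolar brush cell list had 0. Of all probes, 6.9% met this rule upward and 9.73% downward. The part of these cell types in the mGluR and Homer values was not tested.

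For each member that was well above background on all 12 arrays, the genes with the most similar profile were sought among 14597 named probes. The measure was Pearson's r of log2 signal over the 12 arrays, which are 6 pairs of shared lot and slide, so r mainly follows the replicates and is given as a description. Closest to Grm5 were Itm2b (0.989), Ilvbl (0.989) and Ccdc148 (0.985), and without the 2 arrays of replicate 1 these were 0.989, 0.988 and 0.984. Closest to Grm8 were Rnf152 (0.978), Slc35f2 (0.977) and Plcxd3 (0.976), and without the 2 arrays of replicate 1 these fell to 0.919, 0.918 and 0.889.

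Grm7 was followed most closely by Hmox2 (0.98), Sox13 (0.98) and Zfp655 (0.974), and Grm4, through its brighter probe, by Capn3 (0.93), Mab21l2 (0.918) and Hmox1 (0.911). Close to Grm2 were Creb3l1 (0.961) and Spr (0.958). Among the scaffolds, Homer1 was followed by Slc35c1 (0.989), Cux2 (0.989) and Scaf8 (0.984), Homer2 by Apba3 (0.968), Gng4 (0.967) and B3gnt4 (0.967), and Homer3 by Gls2 (0.957), Avil (0.957) and Dbf4 (0.955). Without replicate 1 the values were 0.932 to 0.948 for the Grm7 genes, 0.937 to 0.965 for the Grm4 genes, 0.954 and 0.96 for the Grm2 genes and 0.94 to 0.955 for the Homer1 genes, while those of the Homer2 genes were 0.85 to 0.918 and those of the Homer3 genes 0.86 to 0.899. Gls2, the liver-type glutaminase, which makes glutamate, is also in the signalling lists described next.

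The signalling partners of the receptors were examined through 5 lists. Of the genes tested, 0 in any list had an adjusted limma p under 0.05, and 12 of 83 genes in all had an unadjusted limma p under 0.05 (14.5%, beside 16.6% of all probes tested, a similar share). This count was 9 without replicate 5 and 16 without replicate 3, where that over all probes was 3060 and 4161 instead of 3956. Among 18 Gq effectors of group I receptors, 0 were higher and 1 lower on the unadjusted rule, which 6.9% of all probes met upward and 9.73% downward, and the list's median difference was 0.007. The differences of the list ran from -0.40 to 0.20. These counts take each gene by its brightest probe, while the shares of the array count every probe. A dimmer Trpc1 probe, well above background on all 12 arrays, was higher by 0.17 and met the unadjusted rule. The brightest Trpc1 probe was higher by 0.04 and did not meet it.

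Among 17 Gi/o effectors of group II and III receptors, 2 were higher and 1 lower, with a median difference of 0.03. Adcy6, an adenylyl cyclase that Gi/o inhibits, was higher in all 6 pairs by 0.26 ± 0.07 (SE; limma adjusted p = 0.189). Its log2 signal was 5.37, 5.50 and 5.78 in control and 5.53, 5.79 and 6.02 in ACE, and the groups overlapped. The others, named here because the count is small and after their values were seen, were Gnaz (0.41, well above background on 5 of 12 arrays) and Cacna1a, the P/Q-type calcium channel (-0.13), and neither had the same direction in all 6 pairs.

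Among 17 Homer partners and postsynaptic scaffold genes, 1 was higher and 2 lower, again beside 6.9% and 9.73% of all probes, with a median difference of -0.04. Dlg4, which encodes the scaffold PSD-95, was higher in all 6 pairs by 0.33 ± 0.074 (SE), a 1.25-fold change (limma adjusted p = 0.156). Its log2 signal was 5.81, 6.08 and 6.39 in control and 6.08, 6.36 and 6.91 in ACE. Shank1, a direct partner of Homer, was lower in all 6 pairs by a difference of -0.16 ± 0.041 (SE; limma adjusted p = 0.181). Nfatc2, a transcription factor that binds Homer, differed by -0.39 ± 0.12 (SE; limma adjusted p = 0.207), but was well above background on 2 control and 3 ACE arrays. Dlg4 and Shank1, both part of the postsynaptic scaffold, lay on opposite sides of 0. A dimmer probe of Dbn1 differed by -0.23 and met the unadjusted rule, while its brightest probe, at -0.10, did not.

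**Figure D4:**
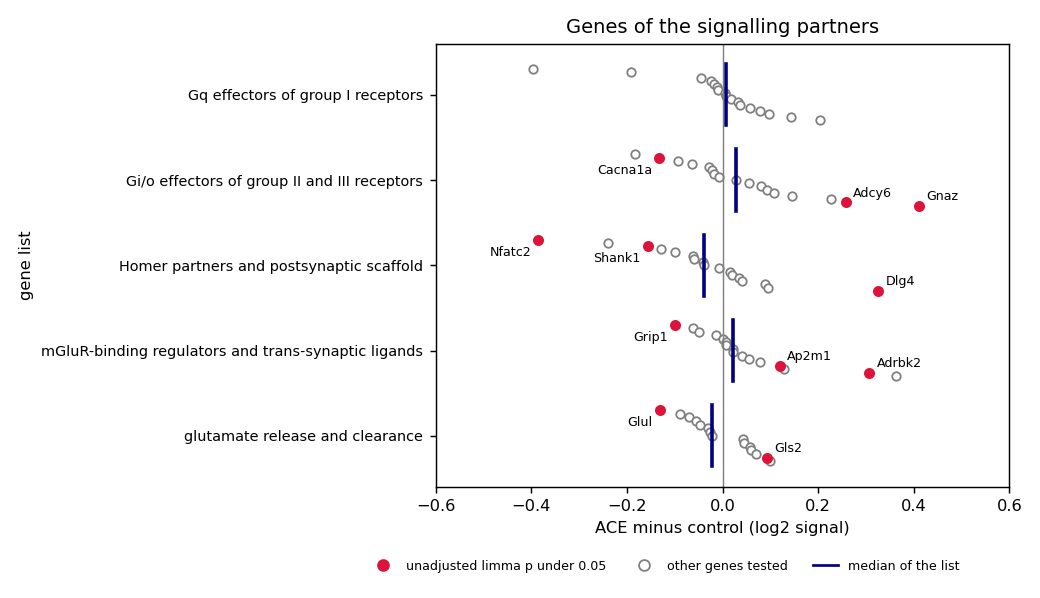
ACE minus control difference (horizontal axis, log2 signal) of the genes tested in 5 lists of mGluR signalling partners (vertical axis), each gene by its brightest probe. Red points had an unadjusted limma p under 0.05 and are named, open points did not, 1 gene of the Gq list is not shown, and the blue bars mark the list medians, which lie between -0.04 and 0.03.

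Among 16 mGluR-binding regulators and ligands, 2 were higher and 1 lower, with a median difference of 0.02. Adrbk2, a kinase that desensitises receptors, was higher by 0.31 ± 0.063 (SE; limma adjusted p = 0.146), and Ap2m1, an adaptor subunit for endocytosis, by 0.12 ± 0.026 (SE; limma adjusted p = 0.15). Grip1, a PDZ scaffold, was lower, with a difference of -0.10 ± 0.028 (SE; limma adjusted p = 0.196). All 3 had the same direction in all 6 pairs. Adrbk2 was dim, at 3.54 to 5.71 log2 units, and well above background on 6 control and 5 ACE arrays. Its largest difference was that of pair 1 (0.58). Other, dimmer probes of Grip1 gave -0.20 and 0.03. Among 15 genes of glutamate release and clearance, 1 was higher and 1 lower, with a median difference of -0.02. Glul, the glutamine synthetase of astrocytes, was lower in all 6 pairs (-0.13 ± 0.046, SE; limma adjusted p = 0.242), while Gls2, named after its value was seen, was higher by 0.09 and not in all pairs.

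On each of the 6 slides the control sat at place 1 and ACE at place 3, so place and exposure cannot be told apart for any value given here.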

How the data were processed

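RNA of 6 control and 6 ACE cultures was hybridised to 1-colour Agilent rat arrays. Per the file headers, the authors extracted the spot intensity with Agilent Feature Extraction (11.0.1.1 in replicate 1, 11.5.1.1 in the remaining replicates), which subtracts background and does not scale between arrays. The authors also deposited log2 values, quantile normalised and centred on each probe's median per their methods; these correlated at 0.997 to 0.999 per array with the values computed here, had array medians of -0.02 to 0.017, and served as an alternative.

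Control spots were left out, spots flagged as outliers were set to missing (0 of them in the member probes), and log2 processed intensity was quantile normalised over the 12 arrays. Spots of a probe were averaged. A probe was tested where it exceeded its array's 20th percentile on at least 7 of 12 arrays and had at least 4 complete pairs. The 75th percentile of intensity per array was 1814 to 4381, and 0 gene spots were saturated. The number of arrays limits the precision.

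CvA was tested with limma 3.58.1 under R 4.3.3 (lmFit and eBayes, two-sided), taking the replicate number as a block, and Benjamini-Hochberg adjustment over 23796 probes. Per the study's methods, the cultures of an experiment shared their cell lot. Deviations from the group means correlated at 0.449 to 0.912 between arrays of the same number and at -0.439 to 0.39 between others. Single probes were also tested by exact sign-flip permutation over pairs. The computation was tested on simulated data.

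The members and gene lists were chosen with earlier results of these data known. Named partners were up to 3 genes per list and direction with an unadjusted p under 0.05 and 1 direction throughout the 6 pairs. Where a gene had several probes, the brightest was used. A few genes that met these rules are not reported here. Probe sequences and positions come from the deposited array files. Alternatives were the 75th percentile shift, normexp background (offset 50), no block, a random block, no filter, probes well above background on all arrays, the deposited values, the exact signed-rank test, leaving out each replicate, and the pairs of 1 scan day. Leaving out replicates 1, 2 and 6 was chosen after seeing the data. The software also included the R package data.table (version 1.17.8), Python 3.11.15 and, for the plots, matplotlib 3.10.9.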

Additional observations from a re-analysis of the deposited data

Results flagged for a closer look

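In 3 of the 20 groups of 6 arrays (10 probes in control and in ACE), the extreme array was farther from its neighbour than Dixon's 95% limit allows. Chance alone flags about 5% of separate groups, but the control and ACE groups of a probe share their 6 lots and the Grm4 probes overlap, so these 20 are not independent. All 3 were Homer probes in replicate 1. Homer1 in control replicate 1 read 9.97 log2 units, against 10.49 to 10.77 in the other 5 controls. Homer3 in control replicate 1 read 9.43, against 9.77 to 9.90. Homer2 in ACE replicate 1 read 9.51, against 8.95 to 9.12 in the other 5 ACE arrays. The other array of the same replicate lay on the same side for all 3 genes.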

How the results depend on the processing

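No member probe passed the adjusted threshold under any alternative run, and no partner gene under the 75th percentile shift, normexp, the 2 block settings or with 1 replicate left out. Of the 10 member differences, Grm2 reversed with the 75th percentile shift (-0.013), with normexp (-0.0015), and without replicate 1 (-0.0096) or 5 (-0.015). Grm3 reversed with the 75th percentile shift (-0.057) and without replicate 5 (-0.044). Leaving out 1 replicate gave -0.015 to 0.027 for Grm2 and -0.044 to 0.13 for Grm3. The Grm4 probes reversed in the pairs of 1 scan day (-0.10 and -0.095). The cause was not tested. Without the replicate block, the probes with an unadjusted limma p under 0.05 went from 3956 to 81, the member probes from 4 to 0 and the partner genes from 12 to 2. With a random replicate block, 5 probes and 0 members passed the adjusted threshold, and 4008 probes and 2 members (Homer2, Homer3) the unadjusted one. Both block settings leave the estimates as they are by construction and alter only their errors. Leaving out 1 replicate gave 1 to 5 member probes and 2811 to 4161 of all probes under the unadjusted rule, and 3392 to 4502 probes with the same direction in every pair, against 2755 with 6 pairs, where fewer pairs make this easier to meet. Without replicates 1, 2 and 6 the counts were 1602 probes under the unadjusted rule, 0 members, and 7309 probes of one direction in 3 pairs. Of the members that kept their sign, Grm5 went from 0.17 to 0.04 and Grm8 from 0.30 to 0.11 with normexp. Grm3 was near background, and Grm8 was as dim in replicate 1.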
